A study of Mus musculus with 16 samples.

Results

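The immediate early genes (IEGs) described here are Fos, Fosb, Junb, Egr1, Egr2, Egr4, Arc, Npas4, Nr4a1 and Dusp1. They are 10 of the 55335 genes in a table of raw read counts from mouse hippocampus, matched by gene symbol to a fixed list of names, and all 10 were among the 16475 genes that passed the filter on low counts. The counts came from 16 female mice with 4 mice in each of 4 groups, dissected at 10 months of age after 28 days of infusion into a lateral ventricle by osmotic pump. WT-D mice (strain C57BL/6J x 129S1) and 3xTg-D mice received the vehicle, 0.8% DMSO in artificial cerebrospinal fluid. WT-S and 3xTg-S mice received 80 µM of CAY10566, an inhibitor of stearoyl-CoA desaturase (SCD), in the same vehicle. The treatment labels were followed, although another SCD inhibitor, ab142089, stands in a protocol text given for every sample. The 3xTg line carries human APPSwe and tauP301L transgenes driven by the mouse Thy1.2 element, which is active in neurons. It is a single transgenic line beside a separately bred WT strain, so genotype and line cannot be told apart. All mice, the controls included, carried a cannula and pump and were killed with ketamine and xylazine according to the study's methods. The sources name no stimulus or behavioural test before dissection of these 16 mice, so the values below are taken as the level found at death and not as a measured response.

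IEGs are genes whose transcription is switched on quickly by signals that are already in place in the cell, without the need for new protein synthesis. In hippocampal neurons, calcium entry through synaptic receptors and voltage-gated channels activates kinases that act on CREB and on SRF with its ELK partners at IEG promoters, and the mRNAs then decay fast. Fos, Fosb and Junb encode subunits of the AP-1 transcription factor. Egr1, Egr2 and Egr4 encode zinc-finger transcription factors, Nr4a1 an orphan nuclear receptor and Npas4 a neuron-restricted factor that responds to calcium entry. Arc is not a transcription factor: its protein acts at the postsynapse, where it promotes removal of AMPA receptors. Dusp1 encodes a phosphatase that switches off MAP kinases and so feeds back on the pathway that induces it.

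The promoters of 4 members are shown as examples that carry the cyclic AMP response element (CRE) half-site that CREB binds. RefSeq promoter windows (build GRCm38.p6, 250 bases before to 50 bases after a transcription start) were found for 8 of the 10 members, and no window was used for Arc or Egr1. The half-site TGACG or its reverse complement CGTCA was present in a window of all 8, compared with 20.8% of 32851 windows and 23.05% of 27025 genes in the same table. At least 2 half-sites were present in 6 of the 8, namely Fos, Egr2, Egr4, Npas4, Nr4a1 and Dusp1, compared with 5.70% of genes. The full palindrome TGACGTCA, which contains both half-sites, was found in Dusp1 among the 8 and in 2.03% of genes. A CArG box, the element that SRF binds, was found in a window of Egr2 and in 1.81% of genes, and the AP-1 element TGACTCA in no member window and in 5.95% of genes. These letters are a description of the windows, and no binding was measured. Below, each window is written 5′ to 3′ on the strand of its gene with half-sites in capitals.
Nr4a1, chr15:101266596-101266895, plus strand: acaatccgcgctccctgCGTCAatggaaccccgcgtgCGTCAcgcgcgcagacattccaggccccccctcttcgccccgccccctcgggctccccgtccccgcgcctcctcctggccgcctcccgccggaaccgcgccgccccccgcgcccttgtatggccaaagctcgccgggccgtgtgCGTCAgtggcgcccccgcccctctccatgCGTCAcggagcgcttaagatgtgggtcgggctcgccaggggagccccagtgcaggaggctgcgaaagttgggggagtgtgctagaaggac
Fos, chr12:85473640-85473939, plus strand: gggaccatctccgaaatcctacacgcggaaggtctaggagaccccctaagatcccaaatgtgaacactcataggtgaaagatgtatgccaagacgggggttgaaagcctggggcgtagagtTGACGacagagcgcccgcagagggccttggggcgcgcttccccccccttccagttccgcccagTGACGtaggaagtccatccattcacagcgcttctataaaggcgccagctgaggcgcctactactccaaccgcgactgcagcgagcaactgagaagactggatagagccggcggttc
Npas4, chr19:4989922-4990221, minus strand: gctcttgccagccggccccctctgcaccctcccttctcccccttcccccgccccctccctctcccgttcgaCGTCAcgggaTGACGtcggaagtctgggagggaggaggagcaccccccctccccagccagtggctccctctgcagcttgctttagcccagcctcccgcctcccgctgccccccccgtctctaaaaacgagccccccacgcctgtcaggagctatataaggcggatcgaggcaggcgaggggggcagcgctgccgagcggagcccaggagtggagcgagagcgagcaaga
Dusp1, chr17:26508423-26508722, minus strand: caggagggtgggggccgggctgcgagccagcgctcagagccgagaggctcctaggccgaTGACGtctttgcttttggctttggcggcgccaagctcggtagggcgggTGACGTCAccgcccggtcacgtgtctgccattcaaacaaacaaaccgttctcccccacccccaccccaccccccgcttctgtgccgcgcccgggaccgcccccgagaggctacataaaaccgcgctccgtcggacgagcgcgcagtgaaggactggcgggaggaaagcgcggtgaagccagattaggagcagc
Nr4a1 had 4 half-sites, of which the nearest began 40 bases and the farthest 233 bases before the start. Fos had 2, at 66 and 129 bases. Npas4 had 2 close together, at 169 and 179 bases. In Dusp1 there were 3, at 140, 143 and 191 bases, the first pair being the overlapping arms of the palindrome.

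Reads assigned to genes numbered from 15413385 to 23590149 a mouse (median 19327524), and members had between 21 (Egr2) and 3034 (Egr1) reads in a mouse. Marker genes of neurons, dentate granule cells and CA1 and CA3 pyramidal cells, 8 genes in each list, had reads in all 16 mice, the tissue the labels name. Choroid plexus markers stood apart in their summed level, which ranged from 28.1 to 736.9 CPM (read counts scaled to library size by TMM) in WT-D and from 27.6 to 293.0 CPM in WT-S mice but only from 28.4 to 45.9 CPM in 3xTg-D and 28.5 to 36.9 CPM in 3xTg-S mice, with 3 of the 8 genes at 0 in some mice. The upper end in each WT group came from 1 mouse. The marker Ttr was at 638.2 CPM in WT-D mouse 4 and at no more than 31.7 CPM in the other WT-D mice. In WT-S it was at 245.7 CPM in mouse 1 and at no more than 3.63 CPM in the others. In WT-D mouse 1, which carried the highest IEG levels described below, the choroid plexus sum was at the low end, 28.1 CPM.

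Levels of different genes were compared as CPM per kilobase of exon, on Gencode M21 gene models, over all 16 mice. Arc (19.8 ± 4.98, mean ± SD, n = 16) and Egr1 (19.5 ± 3.71) stood highest, and Arc exceeded Egr1 in only 8 of the 16 mice. Junb (11.2 ± 1.93) followed, below Egr1 in 16 of 16 mice, and then Nr4a1 (8.60 ± 2.42), below Junb in 15 of 16. Egr4 (3.33 ± 0.698) and Dusp1 (3.24 ± 0.539) did not differ beyond their spread, with Egr4 ahead in 9 mice. Fos, at 2.60 ± 0.970 CPM per kilobase, was below Dusp1 in 15 of 16 mice. Fosb (0.785 ± 0.101) and Npas4 (0.722 ± 0.245) were again close, with Fosb ahead in 11 mice, and Egr2 (0.510 ± 0.229) was the lowest, below Npas4 in 15 mice. Exons of Junb overlap 173 bases of Prdx2 and exons of Dusp1 overlap 11 bases of Ergic1, both on the opposite strand. The strand setting of the counting is not stated, so reads in those stretches cannot be assigned with certainty.

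In GRCm38 the members lie apart on 9 chromosomes. Arc (chr15:74669083-74672570, minus strand, ENSMUSG00000022602.14) and Nr4a1 (chr15:101254269-101274795, plus strand, ENSMUSG00000023034.7) share a chromosome at a distance. Fos (ENSMUSG00000021250.13) spans chr12:85473890-85477273 on the plus strand, and Fosb (ENSMUSG00000003545.3) spans chr7:19302696-19310051 on the minus strand. Junb (ENSMUSG00000052837.6) spans chr8:84974484-84978718, minus strand. Egr2 (ENSMUSG00000037868.15) spans chr10:67535475-67542188, plus strand, and Egr4 (ENSMUSG00000071341.4) spans chr6:85511121-85513589, minus strand. Npas4 (ENSMUSG00000045903.9) spans chr19:4984355-4990316 and Dusp1 (ENSMUSG00000024190.7) chr17:26505590-26562128, both on the minus strand. Egr1 is ENSMUSG00000038418.7.

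The first comparison asked whether the 3xTg genotype changed IEG expression in vehicle-treated mice. Each of the 10 members had a lower fitted level with the transgenes than in WT-D mice, with log2 fold changes from -0.78 (Nr4a1) to -0.18 (Junb) and a median of -0.36, whereas the log2 fold changes of all 16475 tested genes centred on 0, with 50% of them negative. Members varied together from mouse to mouse (median r of 0.67 between pairs, described below). Such a count of signs is therefore not a count of separate observations, here or in later comparisons. Only Nr4a1 was a differentially expressed gene (DEG), called as the study did by an unadjusted p that did not exceed 0.01, here from two-sided quasi-likelihood tests in edgeR. The p-values printed below are adjusted over all tested genes (Benjamini-Hochberg), so a DEG can have a printed p above 0.05. In this comparison 4.91% of all tested genes were DEGs, so 1 of 10 members is a small number against that background. None of the 10 reached an adjusted p of 0.05 in this edgeR fit, as 1.85% of tested genes did. Nr4a1 did so in an edgeR fit with the replicate number as a block (adjusted p = 0.0233). The share of all tested genes that did so under the block is not given here. In the fit without a block, 6 of 10 members and 12.6% of tested genes had an unadjusted p up to 0.05. Without WT-D mouse 1 the latter count was 3 of 10 members (Nr4a1, Egr1 and Arc), beside 11.2% of tested genes.

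**Figure D1:**
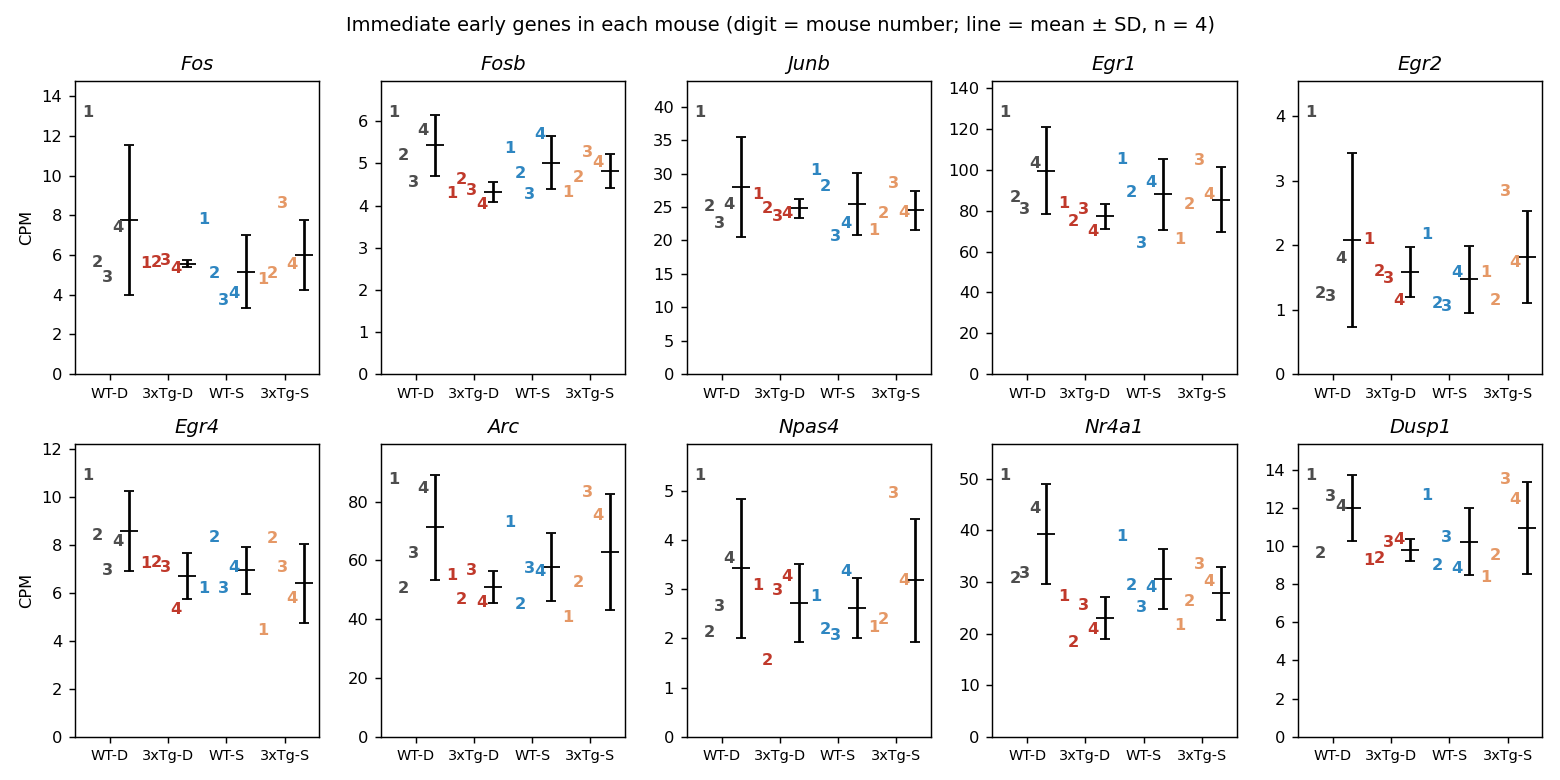
CPM of the 10 IEGs in each of the 16 mice, with 1 panel per gene and the 4 groups on the horizontal axis; digits are the mouse numbers within a group and the black lines show mean ± SD (n = 4). Mouse 1 of WT-D is the highest of its group in all 10 panels, and the 3xTg-D mice lie close together in most panels (Fos 5.34 to 5.73 CPM).

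Nr4a1 was at 50.7, 30.8, 31.7 and 44.2 CPM in WT-D mice 1 to 4 and at 27.2, 18.4, 25.5 and 20.8 CPM in 3xTg-D mice 1 to 4. Each 3xTg-D mouse was below each WT-D mouse, a separation seen in the same direction in 3.78% of tested genes. The mean was down-regulated from 39.3 ± 9.75 to 22.97 ± 4.08 CPM (SD, n = 4), a log2 fold change of -0.78 ± 0.18 (SE; edgeR adjusted p = 0.0589). No other member had groups that did not overlap.

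Arc, the postsynaptic effector, was at 87.5, 50.4, 62.4 and 84.4 CPM in WT-D and at 54.7, 46.7, 56.6 and 45.6 CPM in 3xTg-D mice. WT-D mice 1 and 4 were far above every 3xTg-D mouse, while WT-D mouse 2 lay among them. The log2 fold change of Arc was -0.48 ± 0.16 (edgeR adjusted p = 0.232), just outside the call. Egr1, used widely as a marker of neuronal activation, was at 128.2, 86.7, 80.7 and 103.2 CPM in WT-D and at 83.5, 74.7, 80.7 and 70.0 CPM in 3xTg-D mice. WT-D mouse 3 lay below 3xTg-D mouse 1, and the log2 fold change of Egr1 was -0.37 ± 0.13 (edgeR adjusted p = 0.266). Both genes were DEGs under DESeq2's likelihood ratio test and when the filter on low counts was dropped, settings in which 3 members, Arc, Nr4a1 and Egr1, were called beside 5.28% of all genes (DESeq2) and 3.45% of 33942 genes (no filter).

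Among the AP-1 genes, Fos was at 13.2, 5.62, 4.85 and 7.40 CPM in WT-D and at 5.55, 5.62, 5.73 and 5.34 CPM in 3xTg-D mice. WT-D mouse 1 was above every other mouse of the 16, mouse 2 lay within the 3xTg-D range, mouse 3 below it and mouse 4 above it, and the difference was -0.49 ± 0.27 on the log2 scale (edgeR adjusted p = 0.514). Fosb was at 6.21, 5.19, 4.55 and 5.77 CPM in WT-D and at 4.29, 4.61, 4.35 and 4.03 CPM in 3xTg-D mice, overlapping in 1 mouse of each group (log2 fold change -0.33 ± 0.13, edgeR adjusted p = 0.321). Junb, at 39.2, 25.1, 22.6 and 25.3 CPM in WT-D and 26.9, 24.8, 23.6 and 24.1 CPM in 3xTg-D mice, differed by -0.18 ± 0.15 (edgeR adjusted p = 0.689). WT-D mouse 1 stood alone in this gene, as WT-D mice 2 to 4 averaged 24.3 CPM and the 3xTg-D mice 24.8 CPM.

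Dusp1, the feedback phosphatase, was at 13.7, 9.61, 12.6 and 12.1 CPM in WT-D and at 9.23, 9.36, 10.2 and 10.4 CPM in 3xTg-D mice (log2 fold change -0.29 ± 0.12, edgeR adjusted p = 0.325). WT-D mouse 2 was the exception in Dusp1, since the other WT-D mice were above all 3xTg-D mice. Egr4 was at 10.9, 8.41, 6.91 and 8.12 CPM in WT-D and at 7.20, 7.26, 7.06 and 5.29 CPM in 3xTg-D mice (log2 fold change -0.36 ± 0.16, edgeR adjusted p = 0.392). Npas4 was at 5.32, 2.11, 2.65 and 3.63 CPM in WT-D and at 3.08, 1.55, 2.97 and 3.27 CPM in 3xTg-D mice. Egr2, at 4.06, 1.25, 1.20 and 1.79 CPM in WT-D and 2.09, 1.59, 1.49 and 1.14 CPM in 3xTg-D mice, was high only in WT-D mouse 1. Npas4 and Egr2, with the lowest levels per kilobase, had the widest 95% intervals, from -1.04 to 0.34 and from -1.27 to 0.46 on the log2 scale. Differences anywhere within these bounds are compatible with the values of these mice.

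WT-D mouse 1 was the highest of all 16 mice in 10 of 10 members. Its members' mean z-score (log2 CPM, scaled for each gene over the 16 mice) was 2.14, compared with 0.864 in WT-D mouse 4, -0.17 in mouse 3 and -0.14 in mouse 2. The 3xTg-D mice ranged from -0.75 to -0.13 on this scale, a range that takes in WT-D mice 2 and 3 and lies below WT-D mice 1 and 4. Without WT-D mouse 1, 8 of 10 members (50.4% of all genes) were still negative in 3xTg-D against WT-D, Junb (0.03) and Egr2 (0.16) turned positive, the median log2 fold change was -0.22, and Nr4a1 was still called at -0.63 ± 0.16 (edgeR adjusted p = 0.109), with 4.06% of tested genes called. In that fit Fos was at -0.10 (edgeR adjusted p = 0.850) and Npas4 at -0.05 (edgeR adjusted p = 0.963), while Egr1 was at -0.23 and Egr4 at -0.22. Arc was at -0.37, Fosb at -0.26 and Dusp1 at -0.23. WT-D mouse 1 had 23309273 reads on genes, close to the deepest library, and 10.6% of reads outside annotated genes in a range of 7.82% to 15.1%. Its summed level of 13 clock genes, 928.9 CPM, was within the range of the other mice, but clock genes peak at different hours, so their sum cannot tell the time of day. The microglia and astrocyte marker sums of this mouse, 529.0 and 2640 CPM, were the highest of the WT-D group. Its neuron marker sum, 10848 CPM, was the lowest of that group, as were its sums of striatum, thalamus and cortex layer markers. Its sums of dentate, pyramidal cell, interneuron, oligodendrocyte and endothelium markers lay between those of other WT-D mice. The part of any of these in the IEG levels was not tested.

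**Figure D2:**
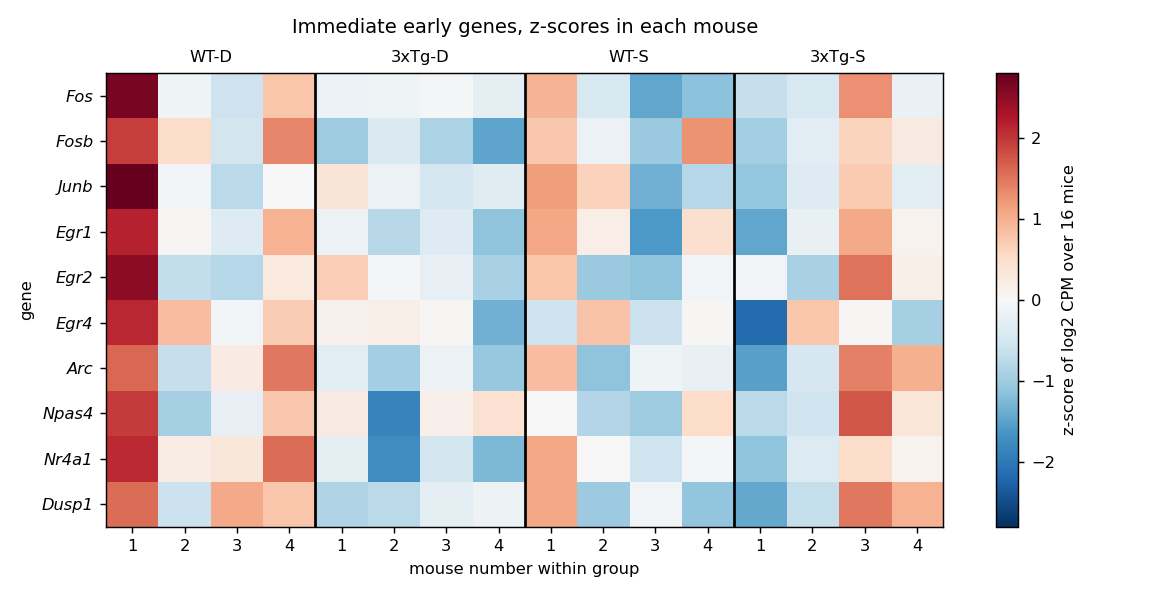
Heat map of the z-score of log2 CPM for each IEG (rows) in each mouse (columns, in 4 blocks by group), with red above and blue below the gene's mean over 16 mice. The first WT-D column is red throughout (mean z-score 2.14), and the third 3xTg-S column is above the mean in all 10 genes (mean z-score 1.04).

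The spread between mice of a group was itself uneven for these genes. Over all tested genes, WT-D was the tightest of the 4 groups, with a median SD of 0.12 on the log2 scale and the smallest SD in 43.2% of genes. No member had its smallest SD in WT-D, and 6 of 10 had their largest SD there, compared with 13.1% of all genes. With vehicle the median SD of the members was 0.35 for WT-D and 0.14 for 3xTg-D, beside 0.12 and 0.15 for all genes. With CAY10566 it was 0.28 for WT-S and 0.35 for 3xTg-S, beside 0.17 and 0.17. In 3xTg-D mice 8 of 10 members had their smallest SD, compared with 24.9% of all genes. Without mouse 1 the members' median SD in WT-D was 0.25 over 3 mice, compared with 0.11 for all genes. These spreads are descriptive and were not tested.

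**Figure D3:**
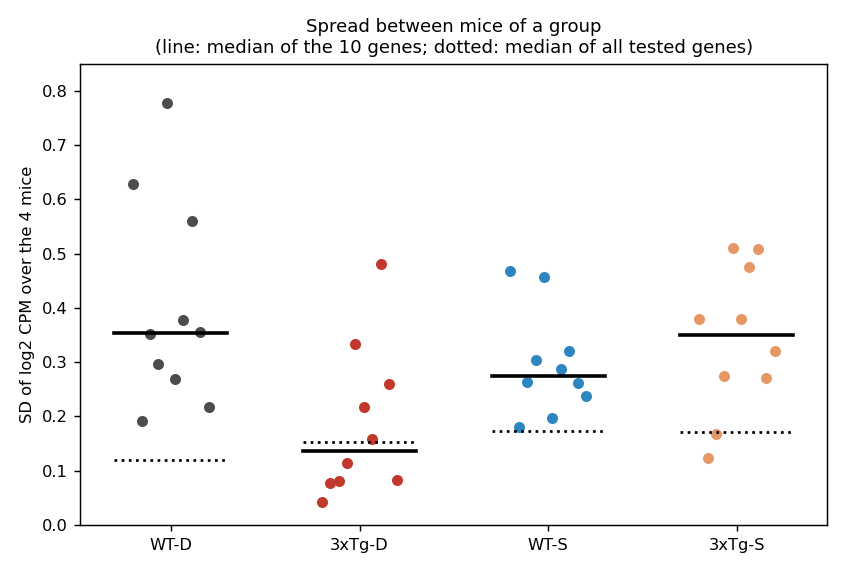
SD of log2 CPM over the 4 mice of each group (vertical axis, log2 units) for each of the 10 IEGs (points), with the median of the IEGs as a solid line and the median of all tested genes as a dotted line. The IEG median is above the median of all genes in WT-D (0.35 and 0.12), WT-S and 3xTg-S, and below it in 3xTg-D (0.14 and 0.15).

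Members varied together from mouse to mouse. After subtraction of group means, the 45 pairs of members had a median Pearson r of 0.67 over 16 mice, from 0.05 for Egr4 and Dusp1 to 0.93 for Fos and Junb. Arc and Dusp1 (r = 0.87), Egr1 and Nr4a1 (0.89) and Fosb and Egr1 (0.88) were also close. Egr4 was the least like the rest, at r = 0.45 with the mean of the other 9, and Egr1 the most, at 0.94. Leaving out WT-D mouse 1 gave a median of 0.60 over 15 mice. Genes measured in one library share its depth and composition, so these values describe the libraries and have no p-value. The spread of a member within groups was large for its level: among genes with a mean CPM within 1.5-fold of its own, the SD of Arc was above that of 97.4%, of Nr4a1 94.97%, of Egr1 94.5% and of Fos 90.5%, whereas Fosb was above only 11.7%.

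The genes outside the list whose mouse-to-mouse pattern was most like the members' mean were Plk3 (r = 0.91 over 16 mice, group means subtracted), Qrsl1 (0.84), Dusp6 (0.84), Zfp658 (0.83), Ccdc88b (0.81), 1700016P03Rik (0.80), Osbpl11 (0.79), Midn (0.78), Timeless (0.76) and Phf13 (0.74), out of 14450 genes compared. Plk3 encodes a stress-responsive kinase and Dusp6 a phosphatase of ERK kinases. The choice of genes depended on the centring, since only 3 of the 10 (Plk3, Dusp6 and Ccdc88b) were among the top 10 when the means of the replicate numbers were also subtracted. None of the 10 was a DEG by edgeR in any of the 6 comparisons.

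The second comparison asked what CAY10566 did in WT mice. Each member had a lower fitted level in WT-S than in WT-D mice, with a median log2 fold change of -0.31, whereas 50.1% of tested genes were negative. None was a DEG by edgeR in the unpaired fit (0.188% of tested genes were) or by DESeq2, and none had an unadjusted p up to 0.05, as 2.25% of tested genes did by edgeR. The median rests in part on WT-D mouse 1: without it the median was -0.12 and 8 of 10 members were negative, beside 49.4% of tested genes.

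Same-numbered WT-D and WT-S mice deviated together across all genes, so a fit with the replicate number as a block was made beside the unpaired one. Under this replicate block 3 members were DEGs, Fos (log2 fold change -0.55 ± 0.15, edgeR adjusted p = 0.920), Arc (-0.29 ± 0.08, edgeR adjusted p = 0.920) and Nr4a1 (-0.35 ± 0.09, edgeR adjusted p = 0.920), with 0.698% of tested genes called. Fos was at 7.79, 5.08, 3.71 and 4.07 CPM in WT-S mice 1 to 4, each below the WT-D mouse of the same number. Arc, at 73.0, 44.8, 57.3 and 56.1 CPM, and Nr4a1, at 38.8, 29.3, 25.2 and 29.0 CPM, were likewise lower than their numbered partners in 4 of 4 pairs. These calls did not hold without WT-D mouse 1: the block then called no member (0.656% of tested genes), with Fos at -0.46 ± 0.18, Arc at -0.30 ± 0.10 and Nr4a1 at -0.34 ± 0.11. In the unpaired fit without that mouse Fos was at -0.20, Arc at -0.18 and Nr4a1 at -0.21. With all 8 mice under the block the other 7 members ranged from -0.42 (Egr2) to -0.11 (Fosb). In the WT-S group mouse 1 was the highest in 7 of 10 members. Shared deviations were not limited to this pair of groups. Same-numbered mice had a mean r of 0.22 here, 0.24 in 3xTg-S against WT-S and 0.21 in 3xTg-S against 3xTg-D. It was 0.18 in 3xTg-S against WT-D and 0.04 in 3xTg-D against WT-D. The block was fitted in those comparisons too and changed no other number of members called.

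**Figure D4:**
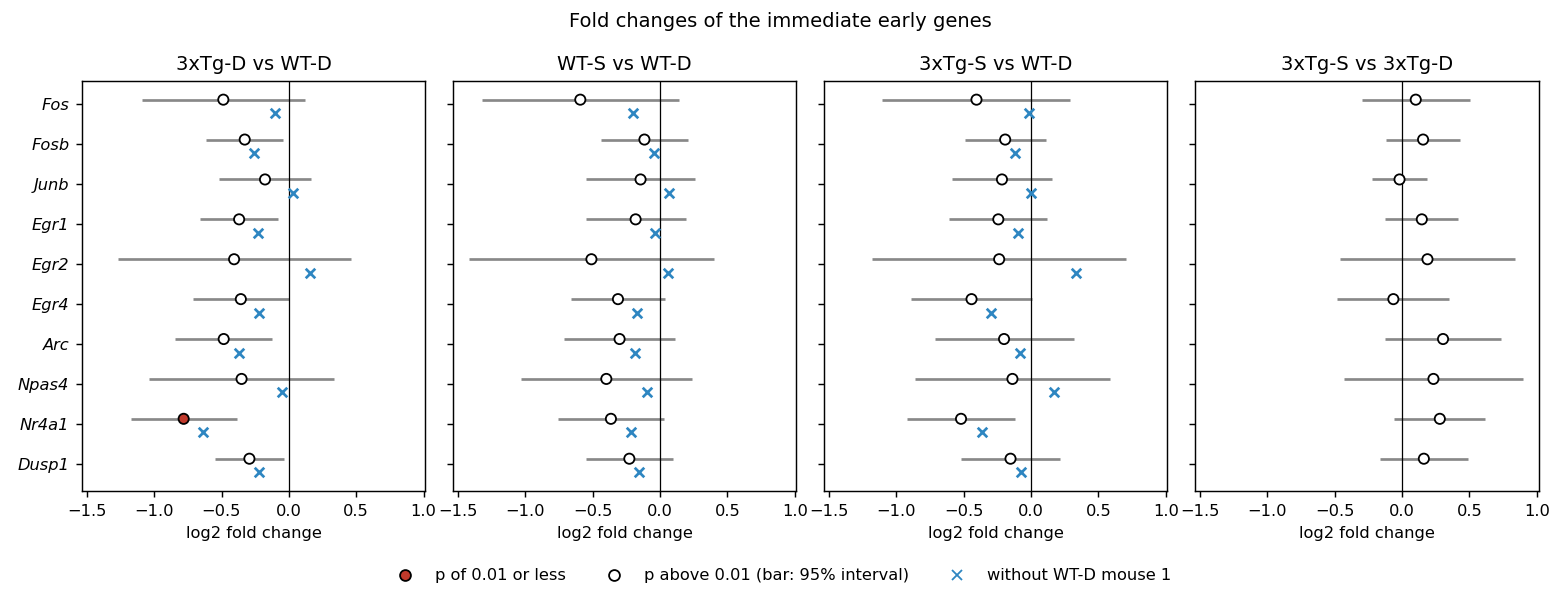
Log2 fold changes of the 10 IEGs in 4 comparisons (panels), with circles for the fit on all 8 mice, bars for its 95% interval, a filled circle for p of 0.01 or less, and crosses for the same fit without WT-D mouse 1 in the 3 comparisons that use WT-D. In these 3 panels all circles lie left of 0, and Nr4a1 in 3xTg-D vs WT-D (-0.78) is the only filled one.

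CAY10566 in 3xTg mice was then examined against both vehicle groups. These comparisons share 3xTg-S mice with each other and WT-D or 3xTg-D mice with those above, so their values are set side by side and not treated as separate evidence. Against WT-D, 3xTg-S mice had 10 of 10 members negative (51.2% of tested genes) with a median log2 fold change of -0.23, and no member was called by edgeR, in a comparison where 5.69% of tested genes were. At an unadjusted p up to 0.05 there was 1 member by edgeR (13.1% of tested genes), and DESeq2 called 1 member (6.26%), Nr4a1 in both cases. Without WT-D mouse 1 the median was -0.08, and 8 of 10 members (49.9% of tested genes) were negative, with Egr2 (0.33) and Npas4 (0.17) positive. Against 3xTg-D, 8 of 10 members were positive (51.9% of tested genes) with a median of 0.16 beside 0.01 for all genes. Again none was called by edgeR, where 0.904% of tested genes were, or by DESeq2, and none had an unadjusted p up to 0.05 by edgeR (6.33% of tested genes).

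Nr4a1 was at 21.6, 26.3, 33.5 and 30.0 CPM in 3xTg-S mice, a mean of 27.8 ± 5.10 CPM between those of 3xTg-D (22.97) and WT-D (39.3). The log2 fold change of Nr4a1 was -0.52 ± 0.18 against WT-D (edgeR adjusted p = 0.222) and 0.28 ± 0.15 against 3xTg-D (edgeR adjusted p = 0.722), with a 95% interval of the latter from -0.06 to 0.62. The direct difference between 3xTg-S and 3xTg-D did not pass the call. Against WT-D, whether Nr4a1 was a DEG in 3xTg-S mice depended on the test, since edgeR did not call it and DESeq2, the tool the study used, did.

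Arc was at 40.6, 52.5, 83.0 and 75.2 CPM in 3xTg-S mice, from below the lowest 3xTg-D mouse up to just under WT-D mouse 4. Its log2 fold change against 3xTg-D was 0.30 ± 0.19 (edgeR adjusted p = 0.730), with a 95% interval from -0.12 to 0.73. Dusp1, at 8.37, 9.49, 13.5 and 12.4 CPM, was split in the same manner, with mice 1 and 2 within or below the 3xTg-D range of 9.23 to 10.4 CPM and mice 3 and 4 above it. Fos was at 4.77, 5.06, 8.61 and 5.51 CPM, so mouse 3 alone exceeded the 3xTg-D mice by a margin. Npas4, at 2.22, 2.39, 4.95 and 3.19 CPM, and Egr2, at 1.57, 1.14, 2.83 and 1.73 CPM, were likewise highest in mouse 3. Egr1 was at 66.1, 83.0, 104.8 and 87.8 CPM in 3xTg-S mice, a range wider than that of the 3xTg-D mice at both ends. Junb and Egr4 were the members with a negative value against 3xTg-D (-0.02 ± 0.09 and -0.06 ± 0.19), smaller than their standard errors.

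Mouse 3 was the highest 3xTg-S mouse in 9 of 10 members, and mouse 1 was the lowest in 9 of 10. Their mean z-scores were 1.04 and -1.12, although their libraries were of like depth (15566762 and 15413385 reads on genes). Without mouse 3, 5 members rather than 8 were positive against 3xTg-D and the median was -0.02. Without mouse 1, 10 of 10 were positive with a median of 0.25. The direction of the group between 3xTg-S and 3xTg-D thus depended on single mice.

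In 3xTg-S against WT-S mice the members were split, 5 negative and 5 positive (49.6% of tested genes were negative), with a median log2 fold change of 0.01. None was called by edgeR, as 4.26% of tested genes were, or by DESeq2, and none had an unadjusted p up to 0.05 by edgeR (10.7% of tested genes). Without 3xTg-S mouse 3 all 10 were negative, with a median of -0.08. Values ranged from -0.15 ± 0.16 for Nr4a1 to 0.28 ± 0.32 for Egr2.

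Whether CAY10566 acted differently in the 2 genotypes was tested as an interaction on all 16 mice. The interaction term was positive in all 10 members and in 51.9% of tested genes, with a median of 0.50 on the log2 scale beside 0.01 for all genes. No member was called by edgeR (0.595% of genes were) or by DESeq2, and 1 member had an unadjusted p up to 0.05 (4.98% of genes). Nr4a1 came closest, at 0.64 ± 0.26 (edgeR adjusted p = 0.788), followed by Arc at 0.60 ± 0.30 (edgeR adjusted p = 0.788). WT-D mouse 1 weighs on this term also, since without it the median was 0.25, Junb turned negative (-0.08) and Nr4a1 was at 0.50 (edgeR adjusted p = 0.796).

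Other rapid IEGs had list medians from -0.06 to 0.08 on the log2 scale over the 6 comparisons. Of 34 further genes of this kind, from Jun and Fosl2 to Klf4, Btg2 and Sik1, 33 were tested. In 3xTg-D against WT-D mice 20 were negative, the median log2 fold change was -0.04, and 1 was a DEG, Nr4a2, an orphan nuclear receptor of the same family as Nr4a1. Nr4a2 was at 62.7, 70.4, 58.2 and 68.1 CPM in WT-D and at 41.9, 47.4, 50.9 and 57.8 CPM in 3xTg-D mice, with no overlap (log2 fold change -0.39 ± 0.10, edgeR adjusted p = 0.0894). In 3xTg-S mice it was at 57.9, 67.8, 59.0 and 66.6 CPM, each above each 3xTg-D mouse (0.34 ± 0.10, edgeR adjusted p = 0.722). WT-S mice lay between 56.9 and 64.3 CPM. Nr4a2 did not follow the members from mouse to mouse (r = -0.01 with their mean), and WT-D mouse 1 was not its highest mouse.

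Nr4a2 and Dusp5, a phosphatase of ERK kinases, were the 2 genes of that list called for the interaction. Dusp5 was at 16.2, 18.1, 14.7 and 16.5 CPM in WT-D and 15.7, 15.4, 11.6 and 13.2 CPM in WT-S mice. In 3xTg mice the order was the other way, from 16.4, 13.4, 14.5 and 12.9 CPM with vehicle to 16.1, 17.7, 17.5 and 17.4 CPM with CAY10566. The interaction was 0.50 ± 0.15 for Dusp5 (edgeR adjusted p = 0.788) and 0.44 ± 0.13 for Nr4a2 (edgeR adjusted p = 0.788). Egr3, the remaining EGR gene, differed by -0.17 ± 0.07 between 3xTg-D and WT-D mice (edgeR adjusted p = 0.314), and Homer1 by -0.09 ± 0.06 (edgeR adjusted p = 0.633). Ier2 and Ier5 differed by -0.37 ± 0.22 (edgeR adjusted p = 0.531) and -0.12 ± 0.07 (edgeR adjusted p = 0.508). Ier2, Ier5, Bdnf and 8 of the 10 members also belong to a list of 11 IEGs selected, among more IEGs, for a lower level in another cohort of the same 3xTg line. That list had 1 DEG in 3xTg-D against WT-D mice, Nr4a1, and as a list selected by outcome it is not independent evidence of a direction.

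**Figure D5:**
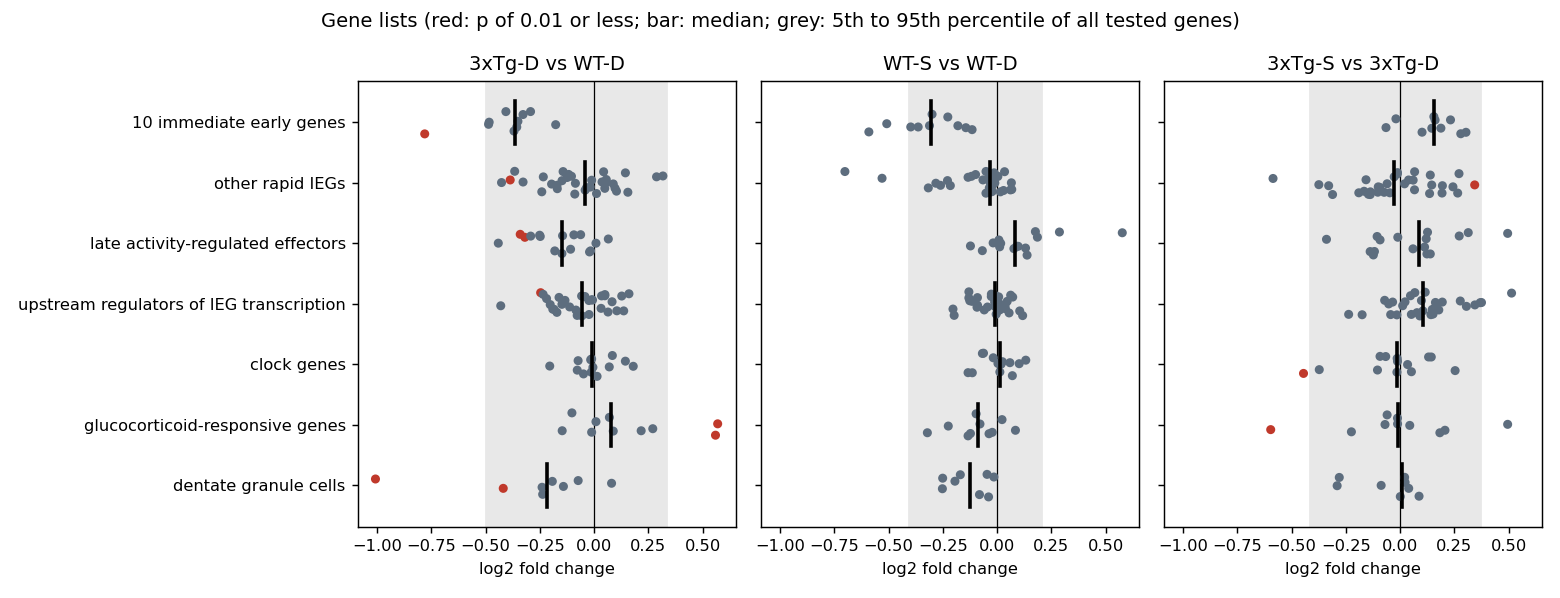
Log2 fold changes (horizontal axis) of single genes in 7 gene lists (rows) for 3 comparisons (panels), with DEGs in red, list medians as black bars and the 5th to 95th percentile of all tested genes in grey. The 10 IEGs have medians of -0.36, -0.31 and 0.16, and the other rapid IEGs have -0.04, -0.03 and -0.03.

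Late activity-regulated genes, which respond to the IEG factors or to prolonged activity, were 16 in number and all tested. In 3xTg-D against WT-D mice 14 were negative with a median of -0.15, and 2 were DEGs, Vgf (-0.34 ± 0.08, edgeR adjusted p = 0.0874), a neuropeptide precursor, and Crem (-0.32 ± 0.09, edgeR adjusted p = 0.123), a CREB-related repressor. Bdnf, the neurotrophin, was at 73.7, 70.2, 63.0 and 71.3 CPM in WT-D and 64.6, 54.3, 62.7 and 52.1 CPM in 3xTg-D mice, overlapping in 1 mouse (log2 fold change -0.25 ± 0.08). In 3xTg-S mice Bdnf was at 53.4, 58.1, 58.5 and 47.1 CPM, below each WT-D mouse and each WT-S mouse, and the log2 fold changes against those groups were -0.38 ± 0.08 and -0.50 ± 0.09 (edgeR adjusted p = 0.0562 and 0.0243). The mean of Bdnf in 3xTg-S mice, 54.3 CPM, was below that in 3xTg-D mice, 58.4 CPM, whereas that of Nr4a1 was above it. Cort (-1.37 ± 0.27, edgeR adjusted p = 0.0322), a neuropeptide of interneurons, and Mfap3l (-0.47 ± 0.09, edgeR adjusted p = 0.0329) were also lower in 3xTg-S than in WT-S mice.

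Of 31 regulators upstream of IEG transcription, from glutamate receptor subunits to CREB, SRF and their kinases, 1 was a DEG in 3xTg-D against WT-D mice, Elk4 (-0.25 ± 0.06, edgeR adjusted p = 0.0869), which encodes an ELK partner of SRF. No regulator was called by edgeR in 3xTg-S against 3xTg-D mice, where the list had a median log2 fold change of 0.11 and 24 of 31 positive values. Of 13 clock genes none was a DEG in 3xTg-D against WT-D mice by edgeR, and Dbp was lower in 3xTg-S than in 3xTg-D mice (-0.45 ± 0.09, edgeR adjusted p = 0.722). Of 10 glucocorticoid-responsive genes 7 were positive and 3 negative in 3xTg-D against WT-D mice, with a median log2 fold change of 0.08. The 2 DEGs among them, Pdk4 (0.57 ± 0.14, edgeR adjusted p = 0.0874) and Txnip (0.56 ± 0.17, edgeR adjusted p = 0.181), were higher in the 3xTg-D group.

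In bulk tissue fewer cells of a type and less RNA per cell cannot be told apart. Of the dentate granule cell markers 7 of 8 were negative in 3xTg-D against WT-D mice, with a median log2 fold change of -0.21, and 2, C1ql2 and Lct, were DEGs. From mouse to mouse C1ql2 and Lct had an r of -0.16 and 0.04 with the members' mean. The other dentate markers were not compared with the members in this way. The summed level of the dentate markers ranged from 377.8 to 503.8 CPM (WT-D), 326.6 to 492.8 CPM (WT-S), 352.1 to 367.5 CPM (3xTg-D) and 314.5 to 390.8 CPM (3xTg-S). In WT-S against WT-D mice 8 of 8 were negative with a median of -0.13 and none called. The oligodendrocyte markers Mbp (0.49 ± 0.09, edgeR adjusted p = 0.0214) and Mobp (0.39 ± 0.08, edgeR adjusted p = 0.0275), which encode myelin proteins, were DEGs and higher in 3xTg-D mice. General neuron markers had 5 of 8 negative values and no DEG. CA1 and CA3 pyramidal cell markers had 4 of 8 negative values (median -0.04) and 1 DEG, Cpne4, which was lower. Interneuron markers had 6 of 8 positive values (median 0.07) and 2 DEGs, Vip and Lhx6, which were higher. Of 6 astrocyte markers all 6 were positive in this comparison (median 0.21), and of 6 microglia markers 5 were (median 0.29), with no DEG in either list by edgeR. In 3xTg-S against 3xTg-D mice, where most members were positive, 6 of 6 astrocyte markers (median -0.23) and 6 of 6 microglia markers (median -0.35) were negative, again with no DEG by edgeR, and Mbp and Mobp were at -0.31 ± 0.16 and -0.25 ± 0.17. The summed astrocyte level ranged from 2351 to 2640 CPM in WT-D, from 2502 to 3934 CPM in 3xTg-D and from 2153 to 2896 CPM in 3xTg-S mice. The summed microglia level ranged from 315.2 to 529.0, from 373.6 to 676.8 and from 311.7 to 459.8 CPM in the same groups. The part of these cell types in the IEG levels was not tested.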

How the data were processed

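Hippocampal mRNA of 16 mice was sequenced from 1 end, with molecular identifiers in the adapters. The authors trimmed reads with Trimmomatic 0.35, aligned them with STAR 2.5.1b to GRCm38 (Gencode M23) and deposited raw read counts per gene. The strand setting and any removal of duplicates are not given in the sources used here. The IEGs and all gene lists were chosen with earlier results of these data known. The 4 alignment summary lines were left out, and an allele of the 3xTg line and a marker gene are not reported here. Genes were filtered with filterByExpr (minimum count 10, minimum total 15) in edgeR 4.0.16 under R 4.3.3, normalized by TMM and tested by quasi-likelihood (two-sided) on the 8 mice of a pair of groups, and on all 16 for the interaction. DEGs had an unadjusted p that did not exceed 0.01. P-values measure the spread between mice, and no library repeated another (chi-square per degree of freedom at least 3.91 over 24 pairs within groups). CPM are TMM-scaled, and log2 CPM used a prior count of 2. Named genes were the 10 members, fixed activity genes, and up to 5 DEGs per list and comparison by smallest p. The fits were tested on simulated data.

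Alternatives were median-ratio size factors, DESeq2 1.42.0 (likelihood ratio test, median-ratio or DEGES size factors), no filter, 10 counts in every mouse (14293 genes), 1 fit of all 16 mice, the share of reads outside genes as a covariate, an adjusted p of 0.05, each mouse left out, and the replicate number as a block. The replicate numbers come from the labels. Deviations of same-numbered mice from their group means correlated above 0.1 in all 4 pairs of WT-S and WT-D (r from 0.11 to 0.34), and in 2 or 3 of 4 pairs in the other comparisons.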

Additional observations from a re-analysis of the deposited data

Results flagged for a closer look

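In the 40 sets of 4 mice (10 IEGs in 4 groups), 2 had a mouse far from the other 3 by Dixon's test, which by chance flags about 1 set in 20. Junb was at 39.2 CPM in WT-D mouse 1, while the next WT-D mouse was at 25.3 CPM. Egr4 was at 5.29 CPM in 3xTg-D mouse 4, while the next 3xTg-D mouse was at 7.06 CPM.

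The effect of CAY10566 differed between 3xTg and WT mice at an unadjusted p of 0.01 or less (edgeR, interaction on 16 mice) in 3 genes of the lists examined and in no IEG of the 10. The difference in log2 fold change, 3xTg minus WT, was 0.50 for Dusp5, 0.44 for Nr4a2 and 0.43 for Tbr1, a marker of deep cortical layers. None passed adjustment over all genes (adjusted p = 0.788 for each).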

How the results depend on the processing

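A member's log2 fold change was refitted 540 times with a change of processing and 560 times without 1 mouse, over 6 comparisons. Of the 540, 1 turned a direction: Egr4 in 3xTg-S against 3xTg-D was at 0.056 with the share of reads outside genes as a covariate. The number of members called in 3xTg-D against WT-D, 1 in the report, was 3 with either DESeq2 fit and with no filter on low counts, 0 at an adjusted p of 0.05 or less in the main fit, and 1 to 3 with 1 mouse left out (3 without WT-D mouse 2, 2 without mouse 3). At an adjusted p of 0.05 or less, 1 member passed with either DESeq2 fit, with no filter and in 1 fit of all 16 mice. The same number passed under the replicate block and without WT-D mouse 2. In 3xTg-S against WT-D the number of members called was 1 with either DESeq2 fit and with no filter, and 0 to 1 with 1 mouse left out (1 without WT-D mouse 2 or 3). For the interaction it was 1 with no filter, and 0 to 1 with 1 mouse left out (1 without WT-S mouse 1). Under the replicate block it was 3 in WT-S against WT-D, and the block changed no other number of members called. Of these 3 none was called under the block without WT-D mouse 1, a fit added after seeing the data. Shares of all tested genes were given above for only some of these fits. Where none was given, a count of members called has no background to be set against. This holds for most fits with 1 mouse left out and for an adjusted p outside the main fit. In all comparisons, WT-S against WT-D included, the labels give the mice only a shared number, although 13 of 16 mice correlated best with a mouse of the same number. Same-numbered mice had a mean r of 0.22 in WT-S against WT-D, 0.24 in 3xTg-S against WT-S and 0.21 in 3xTg-S against 3xTg-D. It was 0.18 in 3xTg-S against WT-D and 0.04 in 3xTg-D against WT-D. Under the block Nr4a1 was at 0.28 ± 0.12 in 3xTg-S against 3xTg-D and at 0.66 ± 0.23 for the interaction, neither called. The block raised the DEGs among all tested genes from 149 to 1133 in 3xTg-S against 3xTg-D, from 702 to 1339 in 3xTg-S against WT-S, from 31 to 115 in WT-S against WT-D and from 98 to 624 for the interaction. Without 1 mouse, positive members in 3xTg-S against 3xTg-D numbered 5 to 10 (5 without 3xTg-S mouse 3), and negative members in 3xTg-S against WT-S numbered 3 to 10 (3 without WT-S or 3xTg-S mouse 1, 10 without 3xTg-S mouse 3). Negative members against WT-D numbered 8 to 10 in the other 3 groups (8 without WT-D mouse 1), and positive interactions 9 to 10. The median correlation of member pairs without WT-D mouse 1 was added after seeing the data. Directions of single members turned in 23 of the 560 fits without 1 mouse. These were as follows, lowest to highest value. In 3xTg-D against WT-D the log2 fold changes ran from -0.27 to 0.028 for Junb and -0.60 to 0.16 for Egr2. In 3xTg-S against WT-D the log2 fold changes ran from -0.52 to 0.33 for Egr2 and -0.42 to 0.17 for Npas4. In 3xTg-S against 3xTg-D the log2 fold changes ran from -0.22 to 0.070 for Egr4, -0.11 to 0.038 for Junb, -0.11 to 0.37 for Egr2, -0.13 to 0.19 for Fos and -0.065 to 0.36 for Npas4. In WT-S against WT-D the log2 fold changes ran from -0.25 to 0.066 for Junb and -0.76 to 0.062 for Egr2. In 3xTg-S against WT-S the log2 fold changes ran from -0.28 to 0.011 for Egr4, -0.16 to 0.031 for Junb, -0.0083 to 0.53 for Egr2, -0.028 to 0.46 for Fos, -0.054 to 0.27 for Arc, -0.031 to 0.20 for Dusp1, -0.18 to 0.048 for Egr1 and -0.017 to 0.40 for Npas4. The interaction ran from -0.082 to 0.22 for Junb. The causes of these shifts were not tested.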
